A study of Mus musculus with 30 samples.

Results

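Reelin is a large glycoprotein that neurons secrete into the extracellular matrix. It binds the lipoprotein receptors VLDLR and APOER2 (encoded by Vldlr and Lrp8), which leads to tyrosine phosphorylation of the adaptor protein DAB1 by kinases of the Src family. The kinase CDK5 with its activator p35 (Cdk5r1) acts in parallel with this pathway, and the dynein regulator LIS1 (Pafah1b1) lies downstream or beside it. In the spinal cord, reelin is best known for the placement of migrating neurons: in mice that lack it, the preganglionic neurons of the autonomic system end up near the midline instead of in the intermediolateral column. The adult expression of these genes in motoneurons is described here for every probe set that the array annotation assigns to them.

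The rule named 7 genes (Reln, Dab1, Vldlr, Lrp8, Cdk5, Cdk5r1 and Pafah1b1). Of these, 6 had a probe set on the array, with 9 probe sets in all among the 12422 tested for 8251 named genes, and the array's annotation assigned none to Lrp8, which was therefore not analysed here. Reln, Dab1 and Vldlr had 2 probe sets each, and the brighter one is called the main probe set. Reln was chosen by its measured values. Its main probe set was already known to be higher in the intermediolateral pool than in the somatic pools. Its differences that involve that pool are therefore given as a description, with no p, and are left out of the counts of called members. The exception is the counts over alternative fits at the end, which include Reln and from which nothing about the members is read. The other 5 genes were taken by their place in the pathway.

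Motoneurons were taken by laser capture from 5 adult mice that had a sham operation, 1 spinal cord each. The labels give no strain, genotype, age in weeks or sex, and all groups share the sham operation. Each animal gave 3 pools of 400 captures: the intermediolateral column (IML), which holds autonomic preganglionic motoneurons, and the lateral (LMN) and medial (MMN) motoneurons, which are called somatic here. The RNA of each pool was put on 2 arrays, so there were 30 arrays and 15 samples, and n is a number of animals throughout. Levels are log2 normalized intensities, in which a difference of 1 is a doubling, and levels of different probe sets cannot be set against each other.

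Several features of the captures bear on what follows. Of 3 measured motoneuron markers limma called 0 between IML and the somatic mean, with 1 at an unadjusted p under 0.05: Slc18a3 differed by -1.33 ± 0.36, Prph by -0.60 ± 0.34 and Isl1 by 0.14 ± 0.09. In this contrast 6.29% of all genes were called, and 2574 of all 12422 probe sets had such an unadjusted p. Against LMN 1 of the 3 markers was called lower, and against MMN 0 were called. Of all genes, 10.1% were called against LMN and only 0.436% against MMN. Slc18a3, the vesicular acetylcholine transporter, ran from 6.81 to 7.57 in IML, while LMN spanned 7.12 to 10.11 and MMN 7.40 to 9.87. Against the somatic mean all 3 measured markers of large somatic motoneurons (Mmp9, Bcl6 and Nefh) were called lower in IML. Of 4 markers of visceral motoneurons 3 (Adcyap1, Penk and Tac1) were called higher, and Nos1 was not called. Against LMN 3 of the 3 somatic markers and 2 of the 4 visceral markers were called. Against MMN it was 1 of 3 and 1 of 4, and 1 visceral marker was lower in IML on average. The 10 markers of meninges and fibroblasts were all higher in IML on average, 7 of them called, with the log2 of their summed intensity from 14.33 to 14.78 in IML, 12.85 to 14.24 in LMN and 13.23 to 14.90 in MMN. Against LMN all 10 were called higher, and against MMN 0 were. All 10 were still higher in IML than in MMN on average, 6 of them at an unadjusted p under 0.05 (limma). That unadjusted p was met against MMN by 1533 of all 12422 probe sets. Of 8 markers of microglia and macrophages 5 were called higher, with a summed level from 10.19 to 10.77 in IML, 9.89 to 10.11 in LMN and 9.89 to 10.37 in MMN. Against LMN 5 of these 8 were called higher, and against MMN 0 were. Of the 8, 7 were higher in IML than in MMN on average, and 5 had an unadjusted p under 0.05 there. No detection calls were used here, so no marker can be called absent. Captures are small tissue pieces, in which fewer cells of a type and less RNA per cell cannot be told apart.

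Reln was higher in IML than in either somatic pool of the same animal, in 5 of 5 animals, as were 7.78% of all probe sets against the somatic mean. In IML the main probe set stood at 8.99, 10.16, 9.67, 9.20 and 9.91 in animals 1 to 5. In LMN it stood at 7.11, 9.79, 9.10, 8.19 and 7.56, and in MMN at 7.33, 9.30, 8.62, 7.55 and 8.19. The pools overlapped when animals were mixed: the LMN sample of animal 2 lay above the IML samples of animals 1, 3 and 4. Animals 2 and 3 were high in both somatic pools and animal 1 was low in both.

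Averaged over animals, Reln stood at 9.59 ± 0.49 in IML (SD, n = 5), while LMN had 8.35 ± 1.09 and MMN 8.20 ± 0.80. IML exceeded the mean of the somatic pools by 1.31 ± 0.21 (log2, SE), a 2.48-fold difference that ranked 19 from the top of the 12422 probe sets. It exceeded LMN by 1.24 ± 0.24 and MMN by 1.39 ± 0.24. These values describe the contrast for which Reln was chosen, and nothing is read from them. Per animal the difference from the somatic mean was 1.77, 0.62, 0.82, 1.33 and 2.03, so it was smallest in the 2 animals whose somatic samples were brightest for Reln.

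The order of the levels was IML, LMN, MMN, and the last 2 did not differ beyond their spread. LMN less MMN, whose estimate does not use the IML samples, was 0.15 ± 0.24 with a 95% interval from -0.37 to 0.68 (limma, adjusted p = 0.847). Its SE comes from the spread of all 3 pools. LMN was the higher of the 2 in animals 2, 3 and 4 and the lower in animals 1 and 5. The interval leaves room for a difference of either sign.

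The arrays of the same RNA gave an estimate of technical error. For the main Reln probe set the technical SD was 0.32, and most samples agreed closely: the IML sample of animal 2 read 10.17 and 10.16 on its 2 arrays. Animal 4 was the exception, with 8.71 and 9.69 in IML, 7.84 and 8.55 in LMN, and 8.11 and 6.98 in MMN. The difference between IML and the somatic mean was 1.27 ± 0.21 on the first set of arrays and 1.35 ± 0.26 on the second.

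The second Reln probe set did not show this difference. Its values in IML were 8.48, 7.72, 8.06, 7.93 and 7.88, against 8.00, 7.72, 7.80, 7.92 and 7.80 in LMN and 8.01, 7.73, 7.87, 7.90 and 7.96 in MMN. Animals 1 and 3 were higher in IML, and in animals 2, 4 and 5 IML differed from either somatic pool by at most 0.08. The difference from the somatic mean was 0.14 ± 0.07, with values of 0.47 in animal 1 and -0.01 in animal 2. Its name carries the maker's suffix for probe sets chosen under relaxed design rules, and across the 15 samples it varied far less than the main one (SD within animals of 0.12 against 0.73). It was brighter than 65.8% of all probe sets, and its technical SD was 0.09. Within animals it correlated with the main probe set at r = 0.60. Why the 2 probe sets differed was not tested.

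**Figure D1:**
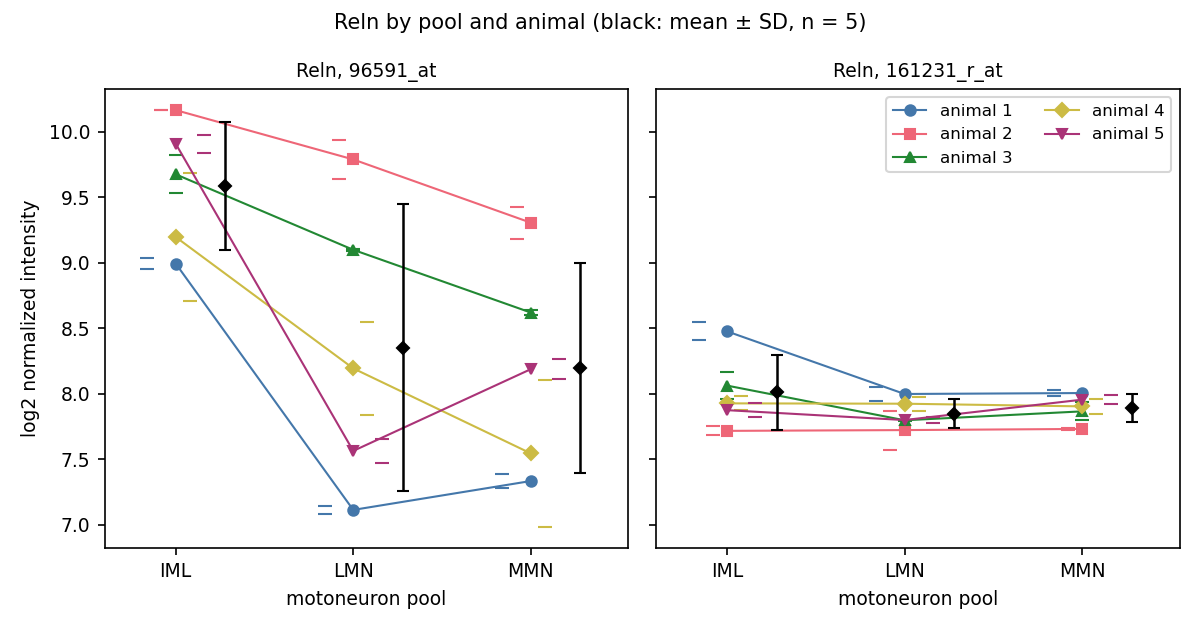
Log2 normalized intensity of the 2 Reln probe sets in the IML, LMN and MMN pools. Coloured symbols joined by lines are the 5 animals, short dashes are their 2 arrays, and black diamonds with bars are the mean ± SD (n = 5). On the left every line falls from IML to both somatic pools, with means of 9.59, 8.35 and 8.20, while on the right the means are 8.01, 7.85 and 7.89.

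Because Reln is the member with the largest difference between pools, the 250 bases before its annotated start are shown (RefSeq, GRCm38.p6, chr5:22344706-22344955, minus strand, written 5′ to 3′). Capitals mark each match to GGGCGG, the core of the GC box, searched on both strands.
Reln promoter: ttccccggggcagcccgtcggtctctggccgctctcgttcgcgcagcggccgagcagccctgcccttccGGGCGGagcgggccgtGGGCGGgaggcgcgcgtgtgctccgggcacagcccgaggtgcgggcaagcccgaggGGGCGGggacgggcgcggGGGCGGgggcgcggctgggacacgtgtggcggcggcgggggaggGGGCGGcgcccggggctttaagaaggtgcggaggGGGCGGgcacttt

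This stretch held 6 matches, all on the strand of the gene and without overlap, while 32.7% of the 32851 annotated promoter stretches of the same length held at least 1. It had 37 CG dinucleotides against a median of 6, more than 97.8% of those stretches, and a GC content of 80.0%. Among the other members, the stretches before the 2 annotated Dab1 starts had 40 and 10 CG dinucleotides with 1 match and no match, that before Pafah1b1 had 22 with no match, and those before the 2 Vldlr starts had 5 and 18 with no match and 1 match. The arrays do not measure promoters, so these letters are a description of the locus only.

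Markers of the captured material also varied between animals, and the part of each in the Reln levels was not tested. In LMN the Slc18a3 level was 10.11, 7.12, 8.36, 8.49 and 9.59 in animals 1 to 5, so that the order of the animals was the reverse of their order for Reln. In MMN it was 9.87, 7.58, 7.40, 8.65 and 7.97, where animals 2 and 3, the brightest for Reln, were the lowest. In IML it was 7.15, 7.57, 7.08, 6.81 and 7.29, where animals 2 and 5 were the highest for both genes, so the reverse order was not seen there. The LMN sample of animal 2, with the highest somatic Reln level, thus had a Slc18a3 level inside the IML range. So did the MMN sample of animal 3, whose Reln level of 8.62 lay below the lowest IML sample at 8.99. These genes were singled out after their values were seen.

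Gad1, which encodes a GABA-synthesising enzyme, was among 4 measured markers of inhibitory interneurons, many of which make reelin. Its level was 9.25, 9.95, 9.68, 8.36 and 9.06 in IML, 7.36, 9.21, 9.17, 8.12 and 7.70 in LMN, and 8.60, 9.82, 10.10, 8.57 and 9.43 in MMN. IML less MMN was -0.04 ± 0.21 for Gad1. Slc32a1, another of the 4, read 12.27, 11.99, 12.14, 12.48 and 12.09 in IML. It read 11.10, 12.54, 12.86, 13.04 and 12.11 in LMN, and 12.25, 12.19, 12.54, 12.53 and 11.97 in MMN. Against the somatic mean 3 of the 4 markers were higher in IML on average and 1, Slc32a1, was lower. Of the 4 markers limma called 0 in this contrast, with 1 at an unadjusted p under 0.05, beside 2574 of all 12422 probe sets. Gad1 was called higher in IML than in LMN. The log2 of their summed intensity ran from 12.29 to 12.59 in IML, 11.28 to 13.10 in LMN and 12.24 to 12.80 in MMN.

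Lum, a matrix proteoglycan of fibroblasts, read 7.67, 9.57, 9.03, 6.15 and 7.41 in LMN and 8.02, 10.18, 9.03, 6.94 and 8.12 in MMN. Animals 2 and 3 were the highest for both Lum and Reln in these pools, and in LMN the other 3 animals ran in opposite orders for the 2 genes. With a marker added to the model, the Reln difference between IML and the somatic mean, 1.31 ± 0.21 without it, was 0.75 ± 0.22 with Slc18a3, 0.96 ± 0.20 with Gad1 and 1.03 ± 0.49 with the averaged fibroblast and meningeal genes. Against LMN alone it was 0.58 ± 0.25 with Slc18a3 and 0.49 ± 0.31 with Gad1. With Gad1 the Reln difference of LMN less MMN was 0.93, against 0.15 without it, and was not called.

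**Figure D2:**
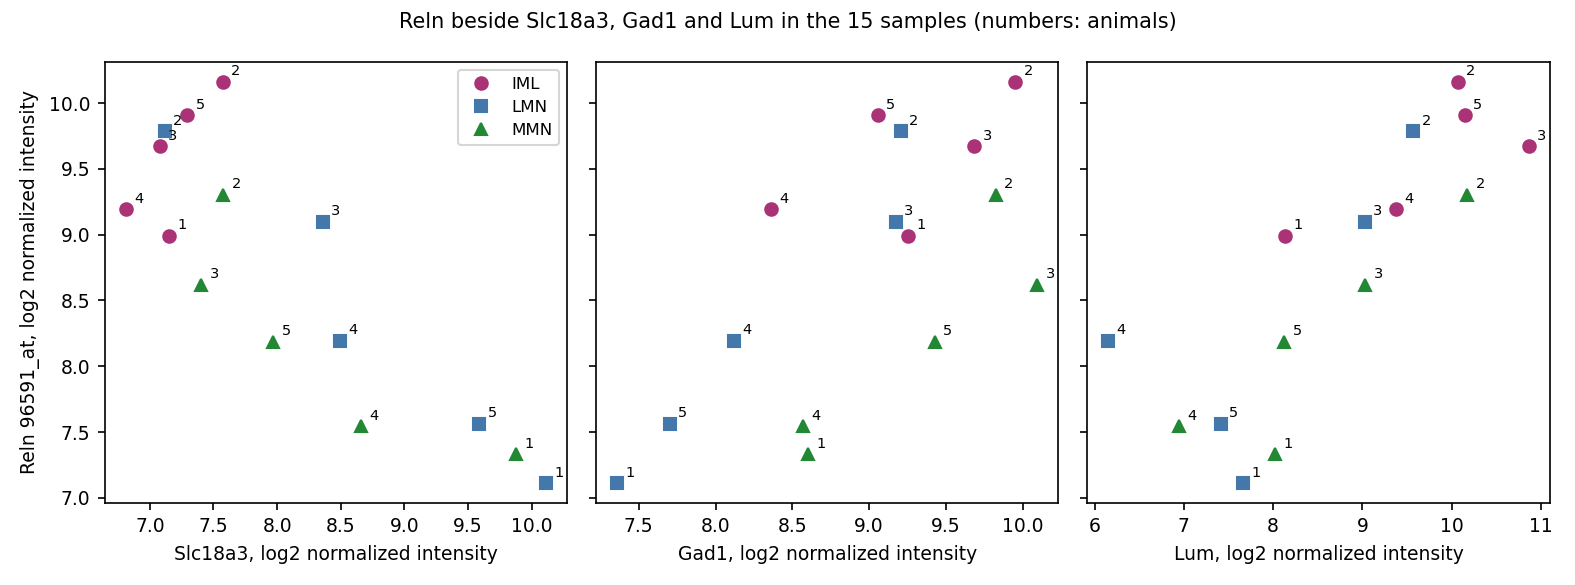
Log2 normalized intensity of the main Reln probe set against Slc18a3, Gad1 and Lum in the 15 samples, which share 5 animals and 3 pools. Symbols mark the pools and numbers the animals. The LMN sample of animal 2, at 9.79 for Reln and 7.12 for Slc18a3, lies among the IML samples, and the LMN and MMN samples of animal 1 lie at the opposite end.

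Among genes that were measured at or above the median brightness and varied at least as much as the median, 3251 were compared with Reln over the 15 samples after the mean of each animal was subtracted. The 5 most alike were Tmx1, a thioredoxin-like membrane protein (r = 0.93), Enoph1, an enzyme of methionine salvage (0.92), the RNA-binding protein gene Serbp1 (0.91), the enkephalin precursor Penk (0.91) and the thrombin receptor gene F2r (0.91). The 3 most opposed were the secreted protease gene Htra1 (r = -0.93), the anion exchanger gene Slc4a2 (-0.91) and Thrsp (-0.90). The samples share pools and animals, so these values describe the pattern only. Of the 5, Penk (1.54) alone differed between IML and somatic pools by more than Reln, and F2r differed by 0.93.

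Dab1 encodes the intracellular adaptor that binds both reelin receptors. Its main probe set read 7.26, 7.01, 6.72, 6.85 and 6.95 in IML, 7.25, 7.07, 6.89, 7.10 and 7.19 in LMN and 7.18, 6.99, 6.65, 7.02 and 7.17 in MMN. The pools overlapped throughout. IML less the somatic mean was -0.09 ± 0.05 with a 95% interval from -0.20 to 0.02, lower in 4 of 5 animals (limma, adjusted p = 0.342).

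The dimmer Dab1 probe set was called lower in IML. It read 4.34, 4.30, 4.21, 4.45 and 4.13 in IML, 5.06, 4.30, 4.70, 4.84 and 4.72 in LMN, and 4.87, 4.17, 4.92, 4.62 and 4.86 in MMN. In animals 1, 3, 4 and 5 both somatic pools were above IML, and in animal 2 neither was. The difference from the somatic mean was -0.42 ± 0.10, 0.75 of the somatic level (limma, adjusted p = 0.0384), and from LMN it was -0.44 ± 0.12 (adjusted p = 0.0408), while against MMN it was -0.40 ± 0.12 and missed the threshold (adjusted p = 0.216).

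This probe set was brighter than only 10.8% of all probe sets, and its call held in 8 of 18 other ways of fitting, with adjusted p from 0.000655 to 0.990. The lowest comes from a fit that entered all 30 arrays, with the arrays of an RNA as a random block. It was lost without animal 1, 3, 4 or 5 in turn (adjusted p = 0.123, 0.149, 0.0795 and 0.152), and held without animal 2 at -0.54 ± 0.09 or without the LMN sample of that animal at -0.44 ± 0.11. With the fibroblast and meningeal covariate it was -0.05 ± 0.21. The 2 Dab1 probe sets had differences of the same sign and unequal size, and which of them reports the transcript more faithfully was not tested.

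Vldlr, the lipoprotein receptor that binds reelin, was dim on both probe sets, which were brighter than 13.8% and 10.0% of all probe sets. The main one averaged 4.84 ± 0.06 in IML (SD, n = 5), with 4.92 ± 0.14 for LMN and 4.82 ± 0.10 for MMN. Its single values ran from 4.68 in MMN of animal 2 to 5.15 in LMN of animal 1. IML less the somatic mean was -0.03 ± 0.05 with a 95% interval from -0.13 to 0.07 (limma, adjusted p = 0.806).

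The other Vldlr probe set had means of 4.55 ± 0.11, 4.47 ± 0.21 and 4.46 ± 0.19, and a difference of 0.09 ± 0.07 (adjusted p = 0.572), of opposite sign to the first. Both intervals include 0, which does not show equal receptor levels.

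Cdk5, a cyclin-dependent kinase that works in neurons outside the cell cycle, was well below the somatic mean in IML of animals 1 and 3 only. It read 8.56, 9.31, 8.55, 9.41 and 8.84 in IML, 9.64, 9.46, 9.38, 9.47 and 9.07 in LMN and 9.98, 9.27, 9.26, 9.57 and 8.34 in MMN. Animals 1 and 3 were lower in IML than their somatic mean by 1.25 and 0.77 and the other 3 differed from it by between -0.12 and 0.14. The mean difference was -0.41 ± 0.18 with a 95% interval from -0.81 to -0.01, which was not called after adjustment (limma, unadjusted p = 0.0459, adjusted p = 0.231).

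The technical SD of Cdk5 was 0.29. Some pairs of arrays agreed closely (9.38 and 9.39 in LMN of animal 3), and the largest gap was 1.15, in MMN of animal 5. On the first set of arrays the difference was -0.21 ± 0.26, and on the second it was -0.61 ± 0.13 and was called (limma, adjusted p = 0.0231). Against LMN it was -0.47 ± 0.21, lower in 5 of 5 animals and not called (adjusted p = 0.206). With Gad1 as a covariate that value turned to 0.03 ± 0.32. The difference from the somatic mean was -0.20 ± 0.15 without animal 1 and -0.04 ± 0.24 with Slc18a3 as a covariate, and it was called in neither.

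Cdk5r1, the p35 activator of CDK5, was level across the pools within its error. Its means were 5.92 ± 0.13 in IML, 5.97 ± 0.15 in LMN and 5.93 ± 0.10 in MMN, and all 15 values lay between 5.76 and 6.16. IML less the somatic mean was -0.03 ± 0.04 with a 95% interval from -0.12 to 0.07 (limma, adjusted p = 0.793). The probe set was brighter than 27.9% of all probe sets.

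Pafah1b1, whose product LIS1 binds dynein, was bright: its mean over the 15 samples lay above that of 98.2% of all probe sets. It read 11.34, 11.08, 11.16, 11.48 and 11.98 in IML, 11.51, 11.31, 11.69, 11.37 and 12.18 in LMN and 11.34, 11.29, 11.61, 11.10 and 12.13 in MMN. Animal 5 was the highest in all 3 pools, and the differences between animals exceeded those between pools. IML less the somatic mean was -0.14 ± 0.08 with a 95% interval from -0.32 to 0.03, lower in 4 of 5 animals and not called (limma, adjusted p = 0.363).

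**Figure D3:**
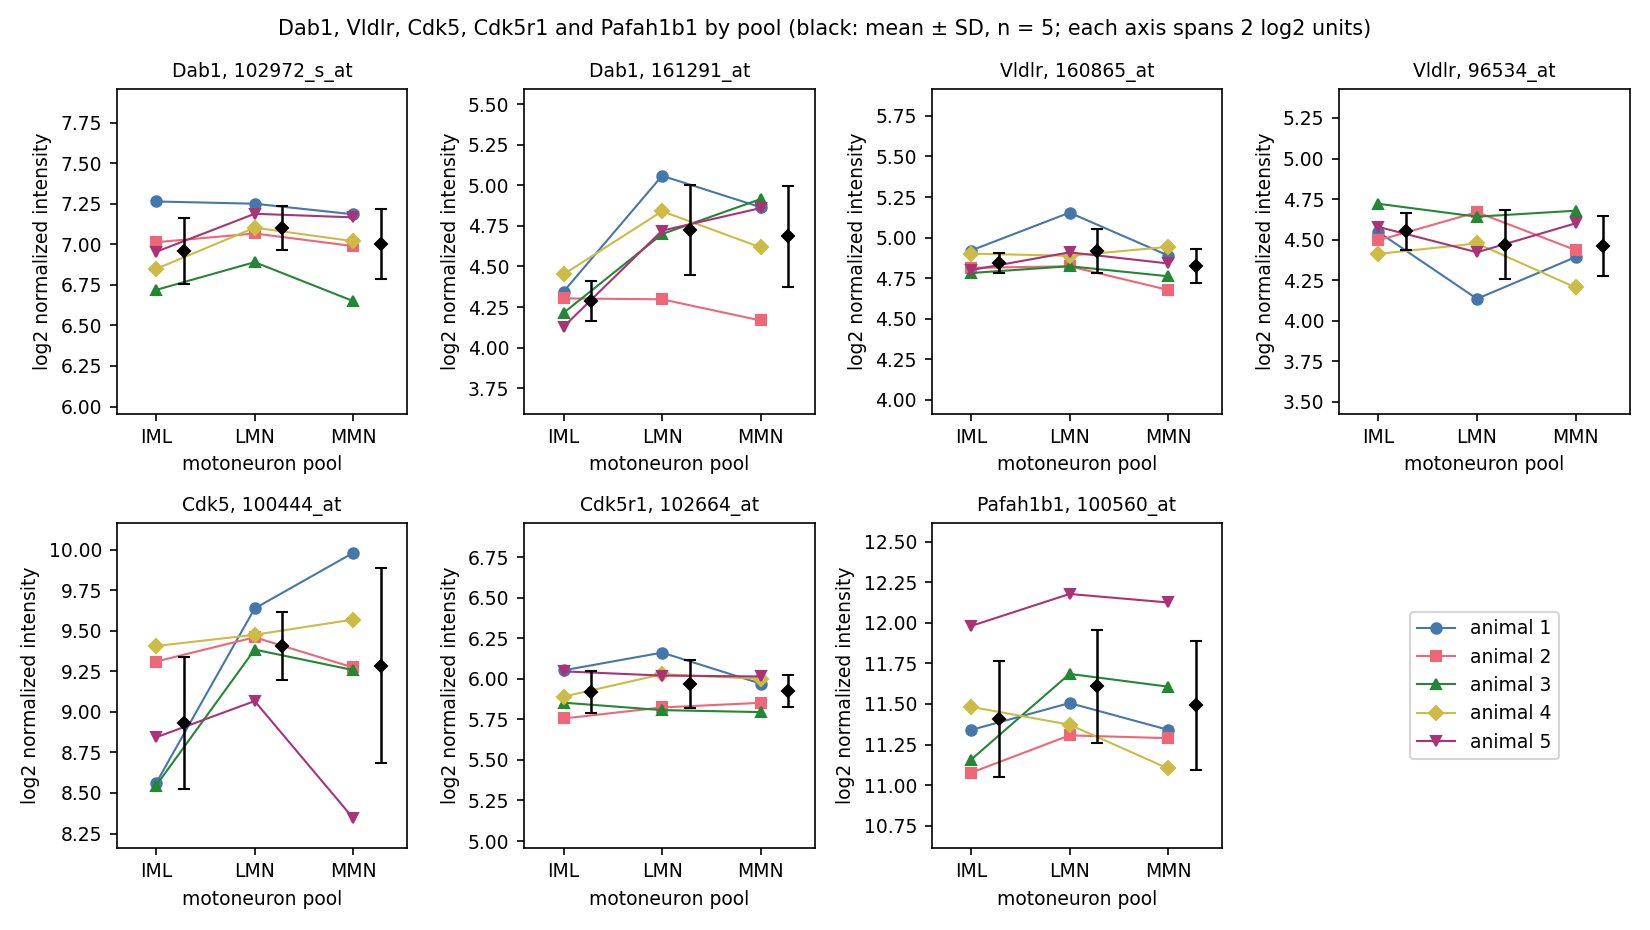
Log2 normalized intensity of the 7 probe sets of Dab1, Vldlr, Cdk5, Cdk5r1 and Pafah1b1 in the 3 pools, drawn with equally long axes. Coloured lines are the 5 animals and black diamonds with bars the mean ± SD (n = 5). The dimmer Dab1 probe set rises from 4.29 in IML to 4.72 in LMN and 4.69 in MMN, and the lines of the other probe sets cross or run level.

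Over the main probe sets of the 5 members other than Reln, limma called 0 between IML and the somatic mean, with 1 at an unadjusted p under 0.05 (Cdk5), where 6.29% of the main probe sets of all 8251 genes were called. All 5 had a negative difference, and 0 of 5 were lower in every animal, as 7.94% of all probe sets were. Their differences ran from -0.41 to -0.03, with a median of -0.09 against -0.01 over all genes. Of all 7 probe sets of these members 1 was called, the dimmer one of Dab1, beside 5.52% of all probe sets. An unadjusted p under 0.05 was met in this contrast by 2574 of all 12422 probe sets.

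Against LMN limma called 0 of the same 5, with 2 at an unadjusted p under 0.05 (Cdk5 and Dab1), beside 10.1% of all genes, and 1 of the 7 probe sets, beside 8.98%. Against MMN it called 0 of 5, with 0 at an unadjusted p under 0.05, beside 0.436% of all genes, and 0 of 7, with 1 at an unadjusted p under 0.05 (the dimmer Dab1 probe set), beside 0.346%. These comparisons share the IML samples and are not independent of each other. An unadjusted p under 0.05 was met by 2923 of all 12422 probe sets against LMN and by 1533 against MMN.

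Between LMN and MMN limma called 0 of 6 members, beside 0.0364% of all genes, and 0 of 9 probe sets, beside 0.0564%. Of these 9, 0 had an unadjusted p under 0.05, beside 1447 of all 12422 probe sets. All 6 main probe sets had a small positive difference, from 0.04 to 0.15, against a median of 0.02 over all probe sets. Pafah1b1 was higher in LMN in 5 of 5 animals by 0.12 ± 0.09 (adjusted p = 0.680) and Dab1 in 5 of 5 by 0.10 ± 0.06 (adjusted p = 0.554), neither of them called. The share of all probe sets with the same sign in 5 of 5 animals was computed only for IML less the somatic mean.

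**Figure D4:**
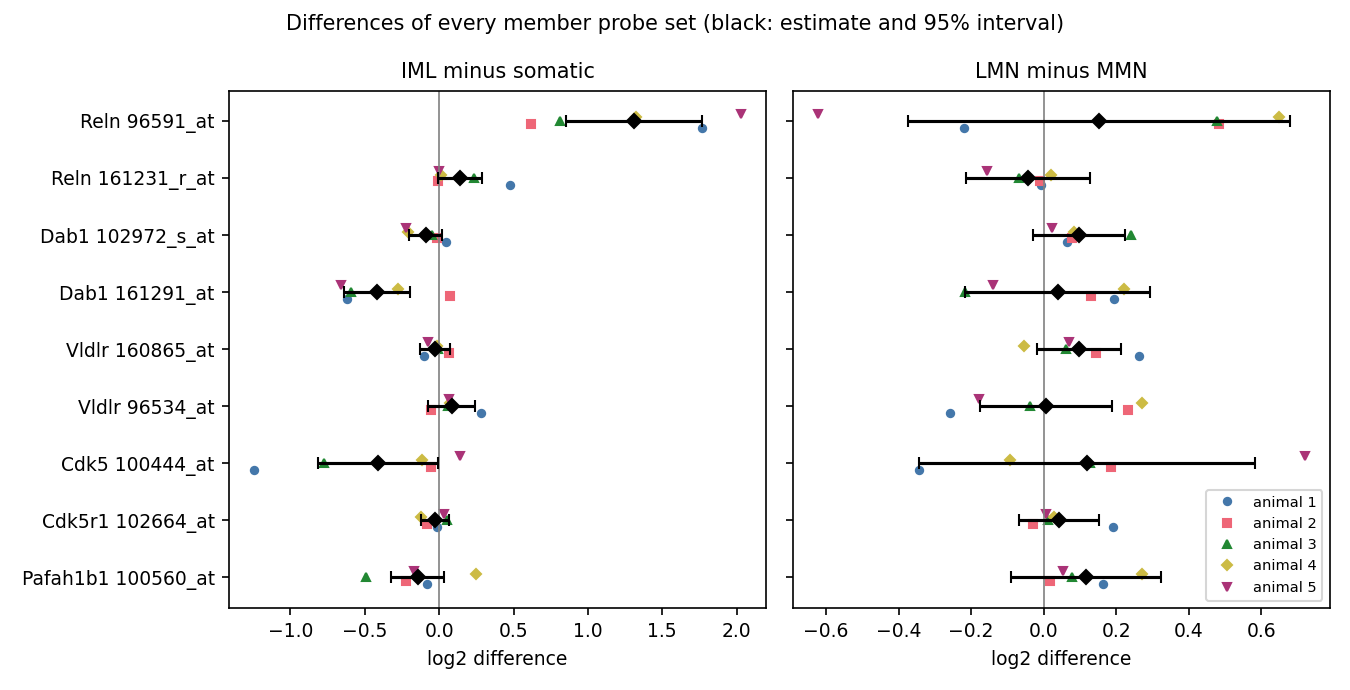
Log2 differences of the 9 probe sets, IML less the somatic mean on the left and LMN less MMN on the right, on axes of different length. Small coloured symbols are the 5 animals, black diamonds the model's estimates and bars their 95% intervals. The main Reln probe set lies at 1.31 on the left with all animals above 0, and on the right every interval crosses 0.

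The wider pathway was described with 5 lists of 65 genes, of which 46 were measured. Between IML and the somatic mean 4 were called higher and 3 lower, beside 4.00% and 2.29% of all genes, and the median over the 46 was -0.03. Against LMN 5 were higher and 4 lower, beside 6.30% and 3.84% of all genes. Against MMN 1 was lower, beside 0.145%. Between LMN and MMN limma called 0 of 46, beside 0.0364% of all genes. An unadjusted p under 0.05 was met there by 11 of the 46, beside 1447 of all 12422 probe sets.

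Of 6 measured genes for other ligands of the receptors, proteases that cleave reelin and factors of receptor turnover, Apoe alone was called between IML and the somatic mean. Apoe, the lipid carrier that also binds VLDLR and APOER2, was higher in IML by 0.79 ± 0.16 in 5 of 5 animals (limma, adjusted p = 0.0184). Beside it, 5 of 8 markers of microglia and macrophages and 1 of 6 of astrocytes, cells that make Apoe, were called higher, and their part in the Apoe difference was not tested. The Apoe call held in 11 of 19 other ways of fitting and was lost without animal 3, 4 or 5 (adjusted p = 0.0794, 0.0763 and 0.0681). With the meningeal and fibroblast covariate, which itself differed between pools, the Apoe difference was 0.07 (limma, adjusted p = 0.990). A dim second Apoe probe set read -0.003 in the main fit. Plat, a protease that can cleave reelin, differed by 0.33 ± 0.10 (adjusted p = 0.0881) and was called against LMN (0.55 ± 0.12, adjusted p = 0.0184). Clu, another ligand, differed by -0.42 ± 0.17 (adjusted p = 0.180).

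Of 5 other receptors of the LDL receptor family, 1 was higher and 1 lower in IML. Lrp6, a co-receptor of Wnt signals, exceeded its somatic level by 0.26 ± 0.07, with the same sign in 5 of 5 animals (limma, adjusted p = 0.0497), close to the threshold, and its dim second probe set read 0.03. Sorl1, a sorting receptor, was lower, at -0.30 ± 0.06 in 5 of 5 animals (adjusted p = 0.0243). Lrp5 differed by 0.03 ± 0.05 and was not called. The Lrp6 call held in 3 of 19 other ways of fitting and was lost without any one animal or the LMN sample of animal 2 (adjusted p from 0.0577 to 0.170). That of Sorl1 held in 8 of 18 and was lost without animal 1, 3, 4 or 5 (adjusted p from 0.0604 to 0.108).

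Among 17 measured kinases, adaptors and effectors around DAB1, limma called 0 in any of the 4 contrasts, with 6, 5, 2 and 2 at an unadjusted p under 0.05 (IML against the somatic mean, LMN and MMN, and LMN against MMN). Of all genes, 6.29%, 10.1%, 0.436% and 0.0364% were called in these contrasts. That unadjusted p was met by 2574, 2923, 1533 and 1447 of all 12422 probe sets. Between IML and the somatic mean the median was -0.01, and the smallest p belonged to Crkl, an adaptor that binds phosphorylated DAB1 (-0.25 ± 0.09, adjusted p = 0.119), Rap1b, a small GTPase (0.16 ± 0.06, adjusted p = 0.136), and Pik3ca, a catalytic subunit of PI3 kinase (-0.27 ± 0.11, adjusted p = 0.160). The Src family kinases Src and Fyn, which phosphorylate DAB1, differed by 0.06 and 0.05.

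Of 9 measured partners and substrates of CDK5, Nefh was lower and Dcx higher in IML. The heavy neurofilament Nefh, also a marker of large somatic motoneurons, differed by -0.83 ± 0.09 (limma, adjusted p = 0.00105) and was lower against MMN too (-0.65 ± 0.11, adjusted p = 0.0345). Dcx, which encodes the microtubule-binding protein doublecortin, was higher in 5 of 5 animals, by 0.35 ± 0.07 on average (adjusted p = 0.0185). The Nefh call held in 17 of 19 other ways of fitting. That of Dcx held in 10 of 18 and was lost without animal 1, 3, 4 or 5 (adjusted p = 0.0591, 0.0920, 0.0645 and 0.0699). Nefm differed by -0.72 ± 0.20 and missed the threshold (adjusted p = 0.0570), while against LMN it was called lower (-1.03 ± 0.23, adjusted p = 0.0182). Cdk5r2, the p39 activator, differed by 0.03.

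The partners of LIS1 held a pair of related genes that moved in opposite directions. Nde1 was higher in IML by 0.59 ± 0.13 in 5 of 5 animals (limma, adjusted p = 0.0292) and Ndel1 was lower, at -0.33 ± 0.07 in 5 of 5 animals (adjusted p = 0.0276). Both encode proteins that join LIS1 to dynein. Of 3 Ndel1 probe sets, a second was also called lower (-0.36 ± 0.09, adjusted p = 0.0454) and the third, dimmer than both, read 0.02 ± 0.04. The Nde1 call held in 8 of 18 other ways of fitting and was lost without animal 2, 3 or 5 or the LMN sample of animal 2 (adjusted p from 0.0503 to 0.130). That of Ndel1 held in 9 of 19 and was lost without animal 1, 2, 3 or 4 (adjusted p from 0.0576 to 0.139). The sign of each held in all of them. The other 8 of 10 were not called, among them the dynein chain Dync1i1 (-0.23 ± 0.08, adjusted p = 0.118).

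**Figure D5:**
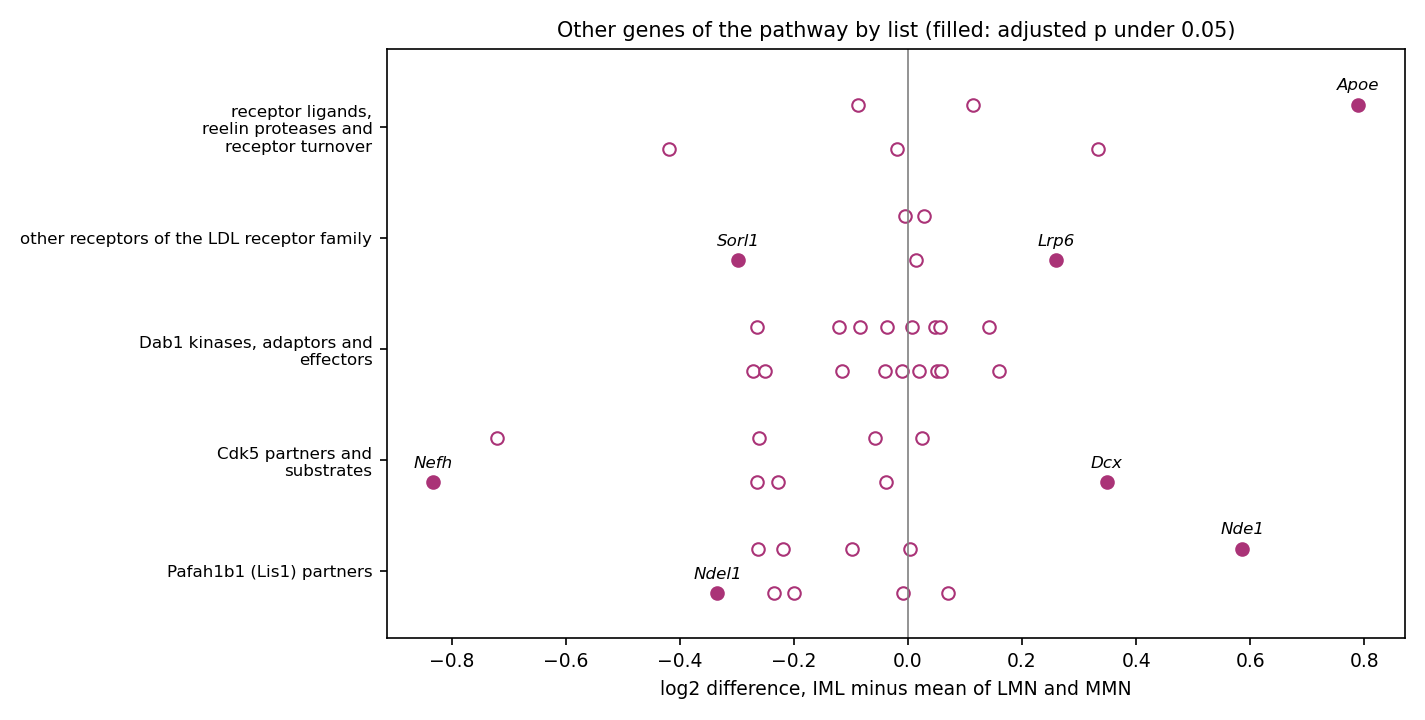
Log2 difference between IML and the mean of LMN and MMN for the 46 measured genes of the 5 pathway lists, 1 point per gene on its main probe set (Mapt stands in 2 lists). Filled points have an adjusted p under 0.05. The called genes are Apoe, Lrp6, Dcx and Nde1 on the higher side and Sorl1, Nefh and Ndel1 on the lower side, and no point of the DAB1 list is filled.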

How the data were processed

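Transcripts were measured on 30 Affymetrix mouse arrays, 2 for each of 15 samples (3 pools from each of 5 animals). The authors deposited linear normalized intensity values. Per the labels, each RNA was divided and amplified in 2 rounds, and normalization used R-pack, whose method is not given in the sources available to this work. Amplification in 2 rounds favours the 3' ends of transcripts. Array medians ran from 131.69 to 145.908, and precision is limited by the number of animals.

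The 66 control probe sets were left out. Values were taken to log2 and the 2 arrays of a sample averaged. For all 12422 probe sets limma 3.58.1 (R 4.3.3) was fitted with fixed terms for pool and animal, eBayes and a two-sided test. Benjamini-Hochberg adjustment ran over all probe sets, and "called" means an adjusted p under 0.05. Symbols came from the array annotation, 10817 of 10833 through the gene identifier. The main probe set of a gene is the one with the highest mean. Pairing came from the labels, and samples of an animal deviated together in all 15 pairs (correlations of at least 0.288). The steps were tested on simulated data.

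All member probe sets were described. From each pathway list the called genes and otherwise the 3 with the smallest p were eligible to be named, with a few added for their role. The genes and lists were chosen with earlier results of these data known, and 3 alternatives (Slc18a3 or Gad1 as covariate, leaving out the LMN sample from animal 2) after seeing the data. Promoters came from RefSeq.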

Additional observations from a re-analysis of the deposited data

Results flagged for a closer look

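Of 27 sets of 5 values (9 probe sets in 3 pools), 1 held a value far from the others, and chance marks about 1 in 20 such sets. The main Vldlr probe set read 5.15 in the LMN sample of animal 1, with the next value at 4.91 and the lowest at 4.82. The second Vldlr probe set read 4.14 in the same sample, the lowest of its LMN values.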

How the results depend on the processing

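The Reln difference between IML and the somatic mean is given here as a description of the contrast for which Reln was chosen, not as a test. Over 19 alternative fits it kept its sign, from 0.75 to 1.49 on the main probe set, and was 0.14 on the second probe set. Without the replicate block it stayed 1.31, its SE rose from 0.21 to 0.41, and the paired design called 686 probe sets against 46 (1116 against 135 for IML less LMN, and 43 against 4 for IML less MMN). With Reln left out, 0 members were called against the somatic mean or against LMN with the settings of the report. On the second technical set alone it was 1 in each of these contrasts. The counts that follow include Reln, whose IML contrasts were used to choose it, so nothing about the members is read from them. The count of members called between IML and the somatic mean, 1 (Reln) with the settings of the report, was 0 without the replicate block and with the fibroblast and meningeal or the Slc18a3 covariate, and 2 on the second technical set alone, where Cdk5 was added. Against LMN, again 1, it was 0 in those same fits and with Gad1, and 2 on the second set. Against MMN, again 1, it was 0 without the block, on the first set alone, after median centring, with a floor of 32, with the fibroblast and meningeal or Slc18a3 covariate, with any one animal left out and without the LMN sample of animal 2. The cause was not tested. Nefh, called with the settings of the report, had an adjusted p of 0.979 with the fibroblast and meningeal covariate (limma, IML less the somatic mean). Its difference in that fit was -0.87. A count of 0 in that fit is therefore not particular to the members. Of the alternative fits, the number of all probe sets called is given here only for that without the replicate block.

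Small differences changed sign. Reln, LMN less MMN, was -0.032 on the first set and -0.044 on the second probe set. Dab1 with the fibroblast and meningeal covariate was 0.042, 0.041 and 0.044 (IML less the somatic mean, LMN and MMN), and against MMN it ran from -0.073 to 0.00011 with an animal left out. Vldlr, IML less the somatic mean, was 0.027 on the second set, 0.038 with the fibroblast and meningeal covariate, 0.015 with Slc18a3, 0.0079 with Gad1 and 0.085 on its other probe set. Against LMN it was 0.013 with the fibroblast and meningeal covariate and 0.082 on the other probe set. Against MMN it was -0.066 on the first set, -0.0041 after quantile normalization, -0.0015 after median centring, -0.0010 with the floor, and from -0.0080 to 0.036 with an animal left out. Cdk5 against LMN was 0.034 with Gad1, and LMN less MMN was -0.0033 with Slc18a3, -0.41 with Gad1 and from -0.031 to 0.24 with an animal left out. Against MMN, Cdk5r1 was 0.016 on the second set and from -0.029 to 0.019 with an animal left out, and Pafah1b1 from -0.20 to 0.0050. The number of animals and low brightness (Vldlr, the dimmer Dab1 probe set) limit these values: with the floor of 32 the dimmer Dab1 difference was -0.011.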
